A study of Rattus norvegicus with 28 samples.

Results

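Circadian clock genes form a feedback loop that runs in most cells with a period near a day. CLOCK and ARNTL (also called BMAL1) pair up and switch on the Period genes Per1, Per2 and Per3, whose proteins come back to repress them, and they also switch on Nr1d1 and Nr1d2 (REV-ERB alpha and beta), which repress Arntl, and Dbp, an output transcription factor. Transcripts of the activator Arntl therefore peak at nearly the opposite time of day from those of Dbp and Nr1d1, and in the brain Per1 is also known to respond to neuronal activity and glucocorticoids. The 8 genes were taken by their Ensembl identifiers, which were paired with their names outside the count files, and all 8 were found among the 26405 genes listed. They are Per1 (ENSRNOG00000007387), Per2 (ENSRNOG00000020254), Per3 (ENSRNOG00000018413), Dbp (ENSRNOG00000021027), Nr1d1 (ENSRNOG00000009329), Nr1d2 (ENSRNOG00000046912), Arntl (ENSRNOG00000014448) and Clock (ENSRNOG00000002175). The question was whether they differed between methamphetamine (meth) and saline rats or between early and late withdrawal, and whether Arntl moved against Dbp and the Period genes.

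Sprague Dawley rats had self-administered intravenous saline or meth, a psychostimulant, and poly(A) RNA was sequenced from tissue punches of orbitofrontal cortex (OFC), which serves the valuation of rewards. The groups were saline at withdrawal day 2, meth at day 2, saline at day 35 and meth at day 35, with 4 libraries each (n = 4). All animals were decapitated straight from the home cage, and each library held tissue pooled from 2 rats, so differences between the rats of a pool are not seen. The sources used here do not give the age of the rats, the clock time of collection or which of the study's separate training runs a library came from, and 12 samples from central amygdala were not analysed here. In bulk tissue, fewer cells of a type and less RNA per cell cannot be told apart. Gene counts per library ran from 20.33 to 48.47 M (1 M being 1000000), fewest in the day 2 saline libraries, and each clock gene had at least 503 reads in every library. The labelled tissue was not checked against marker genes, because the files pair no identifier with a gene name. Levels are counts per 1000000 gene counts (CPM), scaled by the trimmed mean of M-values (TMM). They are not divided by transcript length, so they are compared between groups and not between genes.

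The regulatory letters by which the loop is known to run were looked for in the RefSeq promoters of the 8 genes (build GRCr8, 250 bases before to 50 after a start, 10 windows in all). Searched on both strands, the E-box CACGTG, to which CLOCK and ARNTL bind, was found in Nr1d1 and in 6.42% of all 33469 promoters. Its variant CACGTT, the E′-box, was found in Per2 and Nr1d1 (4.83% of all). The D-box TTATGTAA, bound by DBP, was found in Per2 (0.893% of all), and TAGGTCA, the core of the element bound by ROR and REV-ERB proteins, in Arntl (2.63% of all). The cAMP response element TGACGTCA was in none of the 10 windows (1.83% of all). The 3 windows that follow are shown 5′ to 3′ with these matches in capitals, for a Period gene, a REV-ERB gene and the activator that REV-ERB represses. They are chr9:99496944-99497243 on the minus strand (Per2), chr10:84229405-84229704 on the minus strand (the second listed start of Nr1d1) and chr1:176766078-176766377 on the plus strand (Arntl, listed as Bmal1).
Per2: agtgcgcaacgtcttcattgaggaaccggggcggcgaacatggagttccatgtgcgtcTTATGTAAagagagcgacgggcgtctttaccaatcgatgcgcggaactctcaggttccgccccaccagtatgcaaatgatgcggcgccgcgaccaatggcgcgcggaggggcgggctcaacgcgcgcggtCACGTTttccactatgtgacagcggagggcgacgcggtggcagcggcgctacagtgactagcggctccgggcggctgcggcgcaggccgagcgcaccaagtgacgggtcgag
Nr1d1: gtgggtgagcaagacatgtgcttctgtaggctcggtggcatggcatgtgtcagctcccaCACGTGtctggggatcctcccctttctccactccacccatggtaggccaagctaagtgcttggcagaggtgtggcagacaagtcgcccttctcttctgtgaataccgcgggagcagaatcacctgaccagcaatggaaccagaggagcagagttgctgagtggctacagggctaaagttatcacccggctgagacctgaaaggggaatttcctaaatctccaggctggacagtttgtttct
Arntl: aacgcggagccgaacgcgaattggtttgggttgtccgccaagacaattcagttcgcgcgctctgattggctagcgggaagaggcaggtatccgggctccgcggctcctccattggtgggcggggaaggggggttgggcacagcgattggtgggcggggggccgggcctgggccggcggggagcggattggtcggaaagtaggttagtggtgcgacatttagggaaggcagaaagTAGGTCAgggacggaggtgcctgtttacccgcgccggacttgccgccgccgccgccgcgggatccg
Relative to the start, the capitals begin at -192 (D-box) and -62 (E′-box) in Per2, at -191 in Nr1d1 and at -16 in Arntl. The windows of Per1, Per3, Dbp, Nr1d2 and Clock held no match. A match describes these letters only and shows no binding in this tissue. An absence covers these windows only, since bases outside them were not searched.

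At day 2 no clock gene differed between meth and saline rats past the threshold of the test. That test measures differences against the spread between pools and counting noise together. Of the 8 genes 0 were called (edgeR quasi-likelihood test, Benjamini-Hochberg adjusted p under 0.05 over 15413 genes), where 0.110% of all genes tested were called. Also 0 of the 8 had an unadjusted p under 0.05 (10.5% of all genes), and limma-voom called 0 (15 of 15413 genes). DESeq2 called 0 of the 6 to which it gave an adjusted p, with none given to Arntl and Clock. Over all genes DESeq2 called 115. Per1 was lower in meth than in saline on 4 of 4 lanes (7.62% of all genes were), and its unadjusted edgeR p of 0.17 was 0.033 with lane as a block and 0.0036 in a fit of only the 8 day 2 libraries. Its adjusted p was 0.41 and 0.30 in those fits and ran from 0.3 to 0.8 over the 24 alternatives. The log2 fold changes of meth against saline ran from -0.19 (Per1) to 0.09 (Arntl), with 4 positive and 4 negative, and a median of 0.00 that equals the median of all genes. Saline and meth libraries overlapped in level for each of the 8 genes, while 5.45% of all genes did not overlap.

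**Figure D1:**
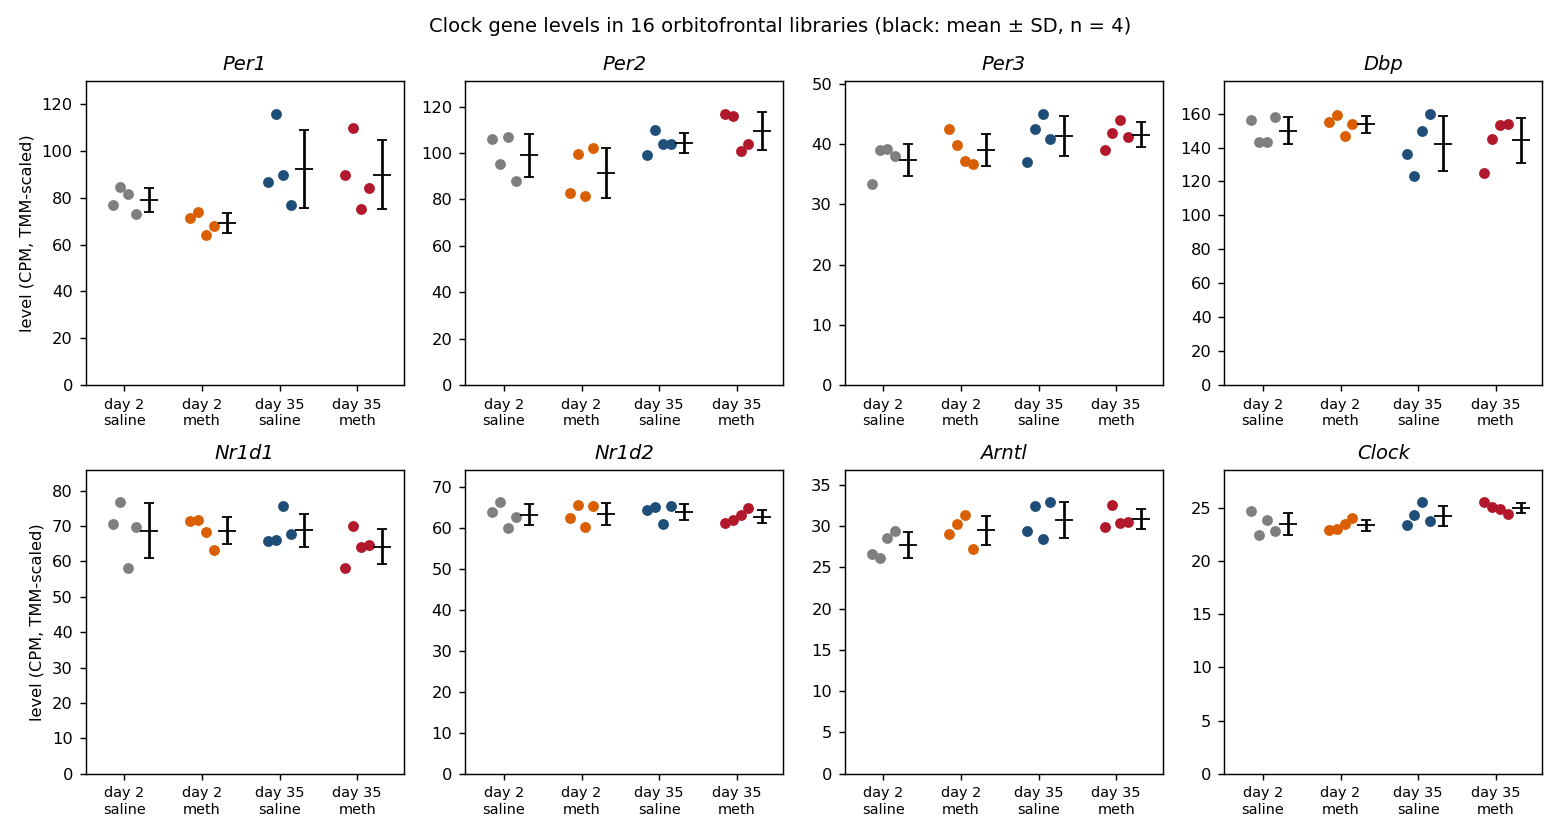
Level of each clock gene (CPM, TMM-scaled, vertical axis from 0) in each of the 16 libraries by group, with the mean ± SD (n = 4) in black. Saline and meth libraries overlap at each day, and the day 35 libraries of Per1 spread from 75.4 to 116 CPM.

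At day 35, too, 0 of the 8 genes were called between meth and saline, as were 0% of all genes tested. None had an unadjusted p under 0.05 (5.85% of all genes). DESeq2 called 0 of the 8 (5 of 15413 genes) and limma-voom called 0 (0 of 15413 genes). Log2 fold changes ran from -0.10 (Nr1d1) to 0.07 (Per2), with a median of 0.01 against 0.00 for all genes. Meth and saline libraries overlapped for all 8, while 3.46% of all genes did not overlap. For Arntl the interval ran from -0.11 to 0.12, for Dbp from -0.14 to 0.19 and for Nr1d2 from -0.10 to 0.05, whereas that of Per1 ran from -0.31 to 0.23. Values inside these unadjusted intervals are compatible with the data, so a difference is not excluded.

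Between the days, Per1 and Per2 had the largest differences of the 8 genes, in meth rats, but neither passed the test. Of the 8 genes 0 were called between day 35 and day 2 in meth rats, where 1.83% of all genes were. An unadjusted p under 0.05 was found for 3 of them (Per1, Per2 and Clock), where 16.0% of all genes had one. For 2 of the 8, Per1 and Clock, the 4 libraries of day 35 all lay above the 4 of day 2; 11.4% of all genes did not overlap in this comparison, and 5.00% were higher without overlap.

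Per1, a Period gene known to respond quickly to stimuli, stood at 71.4, 74.0, 64.0 and 68.1 CPM in the day 2 meth libraries and at 89.9, 110, 75.4 and 84.1 CPM in those of day 35. In the saline libraries it stood at 76.9, 84.8, 81.6 and 73.1 CPM at day 2 and at 86.9, 116, 89.7 and 76.8 CPM at day 35. Each day 35 meth library thus lay above each day 2 meth library, while the saline groups overlapped. Lane by lane, the day 35 library was the higher on 4 of 4 lanes in saline rats (8.49% of all genes were) as in meth rats (13.3% of all genes were). Group means were 69.4 ± 4.30 CPM (SD, n = 4) in day 2 meth, 79.1 ± 5.16 in day 2 saline, 89.9 ± 14.8 in day 35 meth and 92.5 ± 16.9 in day 35 saline. The log2 fold change of day 35 against day 2 was 0.37 in meth rats (SE 0.127, edgeR adjusted p = 0.16) and 0.22 in saline rats (SE 0.128, edgeR adjusted p = 0.66). The difference between these changes was 0.15 (95% interval -0.24 to 0.54, edgeR adjusted p = 0.85), so the drug groups were not shown to differ. With sequencing lane as a block, Per1 passed in meth rats (log2 fold change 0.36, edgeR adjusted p = 0.034), where 311 of 15413 genes were called. Over the 24 alternatives its adjusted p ran from 0.034 to 0.33. In saline rats the block gave 0.21 (unadjusted p = 0.018, edgeR adjusted p = 0.45, with 0.45 to 0.89 over the 24 alternatives). The value in saline rats was 0.09 without day 35 saline replicate 10, and that in meth rats was 0.27 without day 35 meth replicate 6.

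Of the clock genes, only Per1 was highest on 1 and the same lane in every group. The libraries of each group sat on lanes 1 to 4, and the lane 2 library was the highest of its group in 4 of 4 groups, by 0.09 to 0.35 above the group mean on the log2 scale. Lane 2 was highest in all 4 groups for 0.551% of all genes, and any 1 lane was for 2.27%. Of the other members, Per3, Dbp and Nr1d1 had 1 lane highest in 3 of 4 groups and Nr1d2, Arntl and Clock in 2 of 4. For Per2 each lane was highest in 1 of 4. The shares of all genes at these lower counts were not computed, so nothing is read from them. Whether a lane also marks a shared day or order of tissue collection is not stated in the labels, and its part in the Per1 values was not tested.

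**Figure D2:**
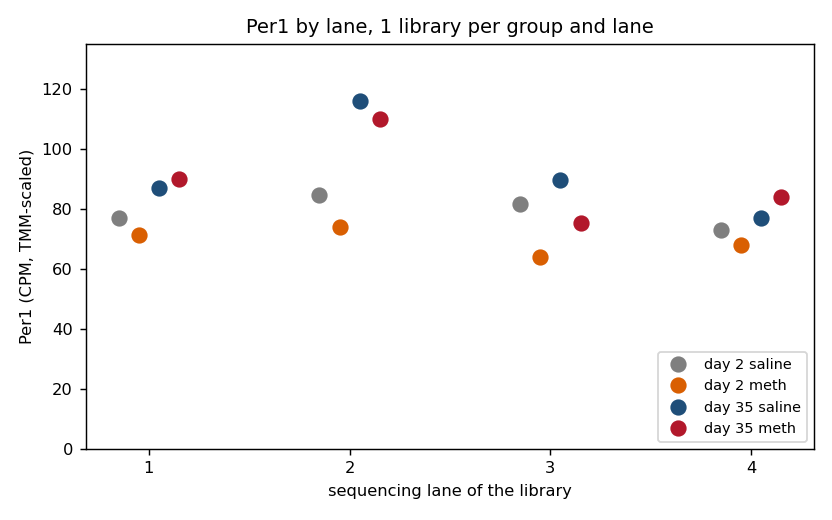
Per1 level (CPM, TMM-scaled, vertical axis from 0) of each library by its sequencing lane, coloured by group, 1 library per group and lane. The lane 2 library is the highest of its group in each group, at 84.8 (day 2 saline), 74.0 (day 2 meth), 116 (day 35 saline) and 110 CPM (day 35 meth).

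Per2, a repressor of the core loop whose promoter is printed above, stood at 82.9, 99.6, 81.3 and 102 CPM in day 2 meth and at 117, 116, 101 and 104 CPM in day 35 meth libraries. The saline libraries stood at 106, 95.2, 107 and 87.9 CPM at day 2 and at 99.3, 110, 104 and 104 CPM at day 35. Day 2 meth replicates 1 and 3 were the lowest of all 16, and the groups overlapped in both drug groups. The log2 fold change over withdrawal was 0.26 in meth rats (SE 0.079, edgeR adjusted p = 0.11) and 0.07 in saline rats (SE 0.080, edgeR adjusted p = 0.86). Their difference was 0.19 (95% interval -0.05 to 0.43, edgeR adjusted p = 0.63). In RefSeq a lncRNA gene overlaps Per2, so some of its reads may not have been told apart. DESeq2 gave Per2 in meth rats an adjusted p of 0.03, below the threshold, and over the 24 alternatives the adjusted p ran from 0.03 to 0.26.

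Per3, the Period gene least needed for the rhythm in mice, ranged from 33.4 to 45.1 CPM over all libraries. Its group means were 37.4 ± 2.71 CPM in day 2 saline, 39.1 ± 2.69 in day 2 meth, 41.4 ± 3.40 in day 35 saline and 41.6 ± 2.05 in day 35 meth (SD, n = 4). Neighbouring means in this order lay within 1 SD of each other. The log2 fold change over withdrawal was 0.14 in saline rats (95% interval 0.01 to 0.28, edgeR adjusted p = 0.56) and 0.09 in meth rats (-0.04 to 0.22, edgeR adjusted p = 0.51).

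Arntl and Clock encode the activator pair. Arntl stood at 26.6, 26.1, 28.6 and 29.4 CPM in day 2 saline, at 29.1, 30.3, 31.4 and 27.3 CPM in day 2 meth, at 29.4, 32.4, 28.5 and 32.9 CPM in day 35 saline and at 29.9, 32.6, 30.4 and 30.5 CPM in day 35 meth libraries. The 2 lowest libraries were day 2 saline replicates 14 and 13, and the groups overlapped. In saline rats the log2 fold change over withdrawal was 0.15 (95% interval 0.03 to 0.27, unadjusted p = 0.015, edgeR adjusted p = 0.47), and in meth rats it was 0.06 (-0.05 to 0.18, edgeR adjusted p = 0.62). Of all 8 genes 0 were called over withdrawal in saline rats, as were 0% of all genes; 2 of the 8, Arntl and Per3, had an unadjusted p under 0.05, against 8.68% of all genes. Day 2 and day 35 saline libraries overlapped for all 8, while 3.86% of all genes did not overlap. DESeq2 called 0 of the 8 in saline rats (37 genes called in all) and limma-voom called 0 (0 of 15413 genes).

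Clock stood at 22.9, 23.0, 23.5 and 24.0 CPM in day 2 meth and at 25.5, 25.1, 24.9 and 24.4 CPM in day 35 meth libraries, with no overlap between the days. In saline libraries it stood at 24.7, 22.4, 23.8 and 22.8 CPM at day 2 and at 23.4, 24.3, 25.5 and 23.7 CPM at day 35, and these overlapped. The log2 fold change over withdrawal in meth rats was 0.10, about 1.07-fold (SE 0.041, edgeR adjusted p = 0.25), and in saline rats 0.05 (SE 0.042, edgeR adjusted p = 0.79). Their difference was 0.05 (95% interval -0.08 to 0.17), and 2 lncRNA genes overlap Clock in RefSeq.

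Dbp, the output gene whose transcript swings widely through the day in many tissues, had means from 142 ± 16.5 CPM (day 35 saline) to 154 ± 5.10 CPM (day 2 meth; SD, n = 4). It stood at 156, 143, 143 and 158 CPM in day 2 saline, at 155, 159, 147 and 154 CPM in day 2 meth, at 136, 123, 150 and 160 CPM in day 35 saline and at 125, 145, 153 and 154 CPM in day 35 meth libraries. The 3 lowest libraries, at 123 to 136 CPM, were all of day 35, namely saline replicates 9 and 10 and meth replicate 5, while the groups overlapped. The log2 fold change over withdrawal was -0.09 in meth rats (95% interval -0.25 to 0.07, edgeR adjusted p = 0.61) and -0.08 in saline rats (-0.24 to 0.09, edgeR adjusted p = 0.84).

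Nr1d1 and Nr1d2 encode the nuclear receptors that repress Arntl. Nr1d1 had group means of 68.7 ± 7.81 CPM in day 2 saline, 68.7 ± 3.95 in day 2 meth, 68.9 ± 4.67 in day 35 saline and 64.2 ± 4.91 in day 35 meth (SD, n = 4), and the groups overlapped. Its log2 fold change of meth against saline at day 35 was -0.10 (SE 0.075, edgeR adjusted p = 0.92). The gene overlaps Thra in the RefSeq annotation, and the library kit does not keep strand, so strand could not tell apart reads from the overlap. How the counting treated such reads is not given. The group means of Nr1d2 lay close together and ran from 62.8 ± 1.58 CPM in day 35 meth to 64.0 ± 2.00 CPM in day 35 saline, and its log2 fold changes in the 4 pairwise comparisons lay between -0.03 and 0.02.

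**Figure D3:**
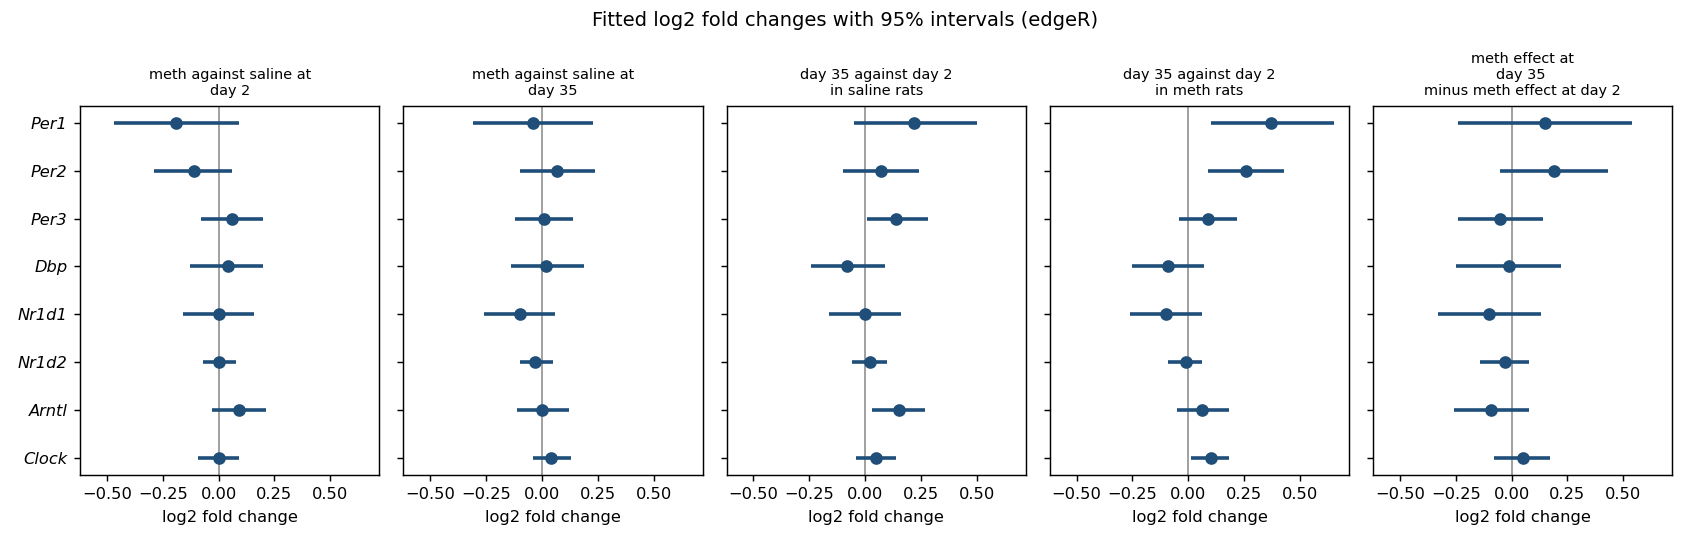
Fitted log2 fold change (horizontal axis, point) with its 95% interval (bar) for each clock gene in 5 comparisons from 1 edgeR model of all 16 libraries. The intervals of Per1, Per2 and Clock in meth rats and of Per3 and Arntl in saline rats lie above 0 for day 35 against day 2, and none of these passed the adjusted test.

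Tested for any difference among the 4 groups, 0 of the 8 genes were called (0.733% of all genes), and 3 had an unadjusted p under 0.05 (Per1, Per2 and Arntl; 14.6% of all genes). The smallest adjusted p was that of Per1 (edgeR adjusted p = 0.26), and DESeq2 and limma-voom called 0 of the 8. Over all genes DESeq2 called 537 in this test and limma-voom 59. The meth effect was not shown to differ between the days for any of the 8 genes. For this difference 0 were called (0.136% of all genes) and 0 had an unadjusted p under 0.05 (9.62% of all genes). Neither DESeq2 (83 genes called in all) nor limma-voom (9 genes called in all) called one of the 8. After the values of both day comparisons had been seen, the day difference was also averaged over the drug groups. There 0 of the 8 were called, against 1.06% of all genes, and 5 had an unadjusted p under 0.05 (Per1, Per2, Per3, Arntl and Clock; 15.2% of all genes). Their log2 fold changes were all positive, from 0.07 (Clock) to 0.30 (Per1; SE 0.090, edgeR adjusted p = 0.12), and the median of the 8 was 0.09 against 0.00 for all genes. Per1 passed in this average with DESeq2 (adjusted p = 0.04) and with lane as a block (edgeR adjusted p = 0.031). Its adjusted p ran from 0.031 to 0.22 over 23 alternatives. Both settings also called more of all genes in this average, 482 with DESeq2 and 213 with the block, against 163 in the main edgeR fit.

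Arntl, Dbp and the Period genes were tested one by one, and a joint shift of them was not tested. Over withdrawal the fitted changes of Arntl and the 3 Period genes had the same sign in both drug groups, and that of Dbp the other, with none called. The log2 ratio of Dbp to Arntl was 2.44 ± 0.09 in day 2 saline, 2.38 ± 0.11 in day 2 meth, 2.20 ± 0.20 in day 35 saline and 2.22 ± 0.14 in day 35 meth (SD, n = 4). The day 2 libraries ran from 2.22 to 2.55 and those of day 35 from 1.92 to 2.39, so the day 35 means were lower and the ranges overlapped; the ratio is a description with no test. Across the 16 libraries Dbp and Arntl had a Pearson r of -0.15 (permutation p = 0.57) and a Spearman rho of 0.01 (permutation p = 0.96), and r was 0.16 without the 2 libraries farthest from the median of Dbp. Within groups, as deviations from the group means, r was 0.04.

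Of the 28 pairs of clock genes, Per2 with Clock had the highest correlation over the 16 libraries. Its Pearson r was 0.71 (permutation p = 0.0017, adjusted over 28 pairs 0.048) and its Spearman rho 0.78 (permutation p = 0.00051, adjusted 0.014), and r was 0.77 without the 2 libraries farthest from the median of Per2. Within groups r was 0.53 and did not pass (permutation p = 0.049, adjusted 0.69). Per1 and Per2 had an r of 0.69 (permutation p = 0.0036, adjusted 0.051), a rho of 0.72 (permutation p = 0.0023, adjusted 0.032) and an r of 0.67 without the 2 libraries farthest from the median of Per1; within groups r was 0.46 (permutation p = 0.027, adjusted 0.69). Both pairs thus passed over all libraries by rho, and neither within groups.

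Per1 and Dbp, both targets of the same activator pair, had the most negative correlation of the 28, with an r of -0.66 (permutation p = 0.0065, adjusted 0.061) and a rho of -0.64 (permutation p = 0.0082, adjusted 0.077). Without the 2 libraries farthest from the median of Per1 r was -0.55. Within groups r was -0.59 (permutation p = 0.11, adjusted 0.83), with -0.64 among the 8 libraries of day 35 and -0.23 among those of day 2, and -0.69 to -0.42 with 1 library left out. Whether the days differ in this was not tested. Day 35 saline replicate 10 had both the highest Per1 (116 CPM) and the lowest Dbp (123 CPM) of all libraries. The pair did not pass the adjusted threshold in either form.

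**Figure D4:**
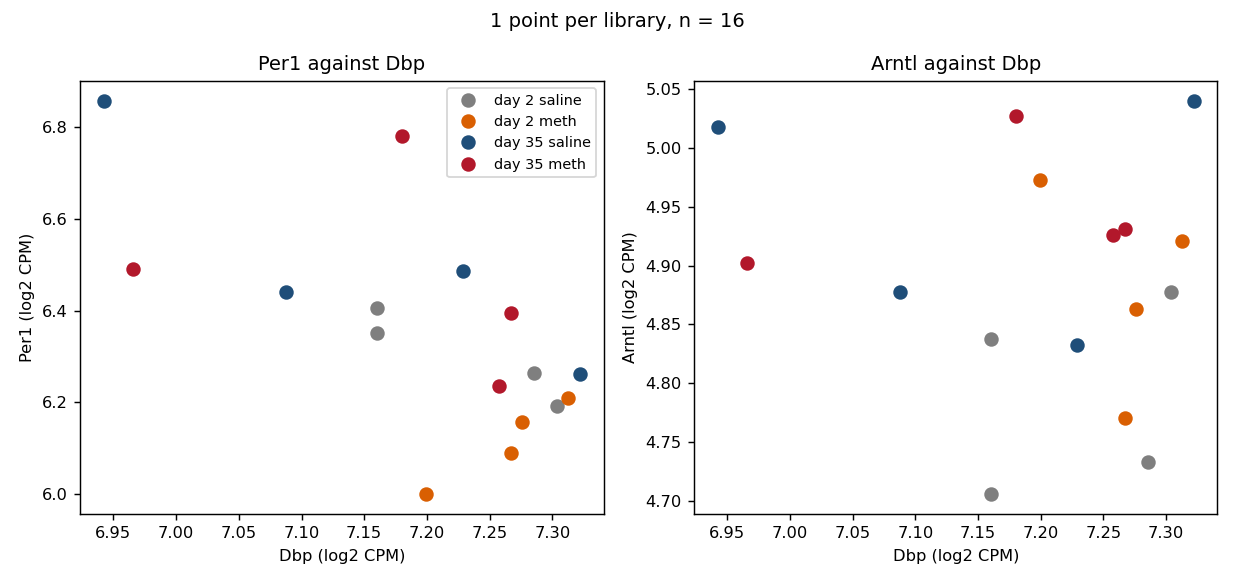
Per1 (left) and Arntl (right) against Dbp, all in log2 CPM, 1 point per library coloured by group (n = 16). The Pearson r is -0.66 for Per1 with Dbp (adjusted permutation p = 0.061) and -0.15 for Arntl with Dbp (adjusted permutation p = 0.79), and neither passed the threshold.

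The 8 genes differed in how far replicate pools spread. Within groups, the SD of log2 CPM (12 degrees of freedom) was 0.183 for Per1, 0.124 for Per2, 0.120 for Dbp, 0.120 for Nr1d1 and 0.101 for Per3, against a median of 0.061 over the 7322 genes at 20 CPM or more. Of those genes 96.7% had a smaller SD than Per1, 91.8% than Per2, 90.9% than Dbp and 90.8% than Nr1d1. The SD was 0.083 for Arntl (75.0% of those genes had a smaller SD), 0.046 for Clock (24.1%) and 0.051 for Nr1d2 (33.9%). Each SD also holds counting noise, which is larger at fewer reads and was not separated from spread between pools. These shares are a description with no test.

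For Per1 and Dbp the spread was also wider at day 35 than at day 2, in saline and meth groups alike. The within-group SD of log2 CPM was 0.092 for Per1 at day 2 and 0.241 at day 35, a ratio of 2.61, and for Dbp it was 0.065 and 0.157, a ratio of 2.43. The median ratio of all genes at 20 CPM or more was 0.91, and 99% of them had a smaller ratio than Per1 and 98.7% than Dbp. For the other 6 clock genes the ratio lay between 0.55 (Per2) and 0.97 (Arntl). Without the lane 2 libraries the ratio of Per1 was 1.55, and without day 35 saline replicate 10 and day 35 meth replicate 5 that of Dbp was 1.45. With any 1 library left out it stayed between 2.09 and 2.93 for Per1 and between 2.09 and 2.68 for Dbp. Per1 and Dbp had the largest ratios of the clock genes, and all these ratios are a description with no test.

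**Figure D5:**
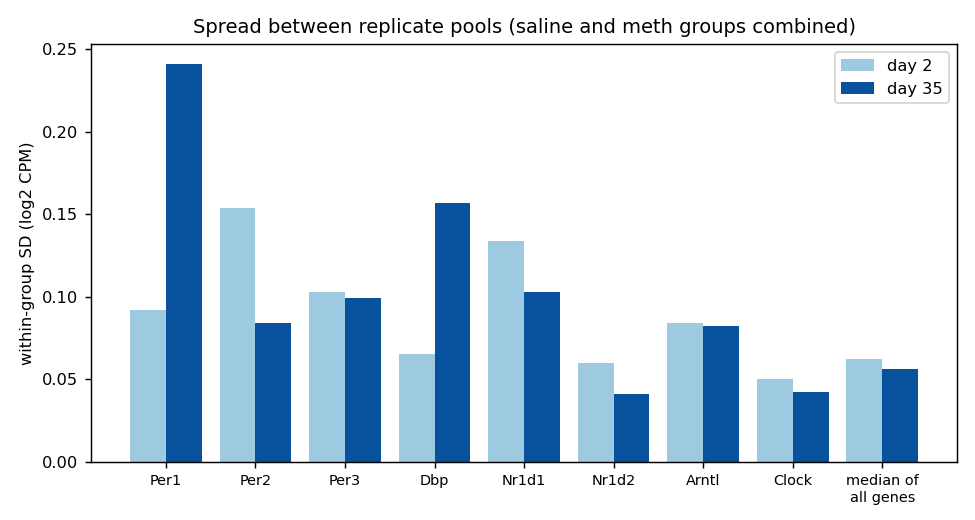
Within-group SD of log2 CPM (vertical axis from 0) at day 2 (light) and day 35 (dark), pooled over the saline and meth group of each day, for the 8 clock genes and as the median of 7322 genes. Per1 goes from 0.092 to 0.241 and Dbp from 0.065 to 0.157, while the median gene goes from 0.062 to 0.056.

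Genes outside the 8 with the most similar course over the 16 libraries were ENSRNOG00000005190 (r = 0.78) and ENSRNOG00000019486 (r = 0.77) for Dbp, at geometric mean levels of 8.52 and 2.64 CPM. For Arntl they were ENSRNOG00000047374 (r = 0.86) and ENSRNOG00000000095 (r = 0.82), at 264 and 30.3 CPM. These are the highest Pearson r of log2 CPM among all genes tested with no 0 count, given with no p, and the libraries share their depth scaling. Among the clock genes the highest r was that of Nr1d1 for Dbp (r = 0.39) and of Per3 for Arntl (r = 0.46).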

How the data were processed

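The deposited files hold raw read counts per Ensembl gene identifier, 1 file per library, with no normalization. Per the labels' protocols, the authors' poly(A) RNA went into TruSeq RNA v2 libraries, a kit that does not keep strand, for Illumina sequencing. The submitters' processing notes name TopHat, HTSeq and limma, and rn4 as the build. Their versions, the annotation and any strand setting were not given in the sources used here. Each file's 5 summary rows (31.13 to 32.61% of reads) were left out. No identifier could be matched to the gene table, since 0 of its rows hold an Ensembl identifier, so a wider list of clock genes and cell type markers, listed by symbol, was not run.

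Genes were filtered with edgeR's filterByExpr, which kept 15413 genes and all 8 clock genes, and scaled by TMM (factors 0.985 to 1.018). A model of 4 group means over the 16 libraries was tested with glmQLFit (robust) and glmQLFTest (edgeR 4.0.16, R 4.3.3), with calls at an adjusted p (Benjamini-Hochberg, all genes) under 0.05. Standard errors are the absolute log2 fold change over the square root of F. The pipeline was tested on simulated data. Correlations used 100000 permutations, two-sided, of all libraries or within groups. Alternatives were DESeq2 1.42.0, limma-voom 3.58.1, other scaling and filters, a lane block, fits restricted to the compared groups, and each library left out. Within-group pairs of libraries differed by 5.19 to 17 times the sampling noise (chi-square per degree of freedom), so none was merged. Each lane held 1 library of every group, per the labels, which pairs libraries by lane; the mean correlation of deviations from group means was 0.023 for the 24 same-lane pairs of libraries, whose range was -0.243 to 0.211, and -0.008 for the other 72. Each group carries 1 index, so index and group cannot be told apart. The 8 genes, lists and tests were chosen with earlier results of these data known; named genes were the 8 and, for Dbp and Arntl, the 2 most similar genes each.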

Additional observations from a re-analysis of the deposited data

Results flagged for a closer look

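No clock gene had a library far from the other 3 of its group, over 32 sets of 4 levels. In total 44 sets of 4 values were examined, where chance sets a library apart in about 1 in 20, and 2 sets had one, both of sequencing depth. Day 2 meth replicate 1 had 24.97 M gene counts and day 2 saline replicate 13 had 20.33 M, each the fewest of its group and far from the others. Without both libraries 0 of the 8 clock genes were called in any comparison, as with them.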

How the results depend on the processing

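In the 4 pairwise comparisons, the difference of meth effects and the test of any difference, 0 clock genes were called, and this held under all alternatives run but for day 35 against day 2 in meth rats, where DESeq2 called 1 (Per2) and lane as a replicate block called 1 (Per1). In the average over drug groups, added after seeing the data, DESeq2 and lane as a block each called 1 (Per1 both times). The cause was not tested. DESeq2 gave Arntl and Clock no adjusted p for meth against saline at day 2. Counts over all genes for meth rats over withdrawal were 282 with edgeR, 554 with DESeq2 and 311 with lane as a block. In the average over drug groups these counts were 163 with edgeR, 482 with DESeq2 and 213 with lane as a block. The block changed no other call of a clock gene. Leaving out 1 library gave 0 clock genes in every comparison. Signs turned only for values that were not called. Leaving out both shallow day 2 libraries (meth 1 and saline 13) gave -0.03 for Per3 and 0.03 for Clock in meth against saline at day 2, and 0.04 for Per3 in the difference of meth effects. Nr1d1 and Clock at day 2 turned at 0.00 with limma-voom, and Nr1d1 with lane as a block. The correlation of Dbp with Arntl was 0.04 within groups and 0.16 without 2 libraries, and -0.30 to 0.06 with 1 library left out. With 1 library left out, log2 fold changes of meth against saline at day 2 ran from -0.03 to 0.02 for Clock, -0.08 to 0.05 for Nr1d1 and -0.02 to 0.03 for Nr1d2. At day 35 they ran from -0.03 to 0.04 for Arntl, -0.04 to 0.09 for Dbp, -0.15 to 0.09 for Per1 and -0.04 to 0.05 for Per3. The difference of effects ran from -0.07 to 0.05 for Dbp and from -0.10 to 0.00 for Per3. The change over withdrawal ran from -0.04 to 0.01 for Nr1d2 in meth rats, from -0.01 to 0.04 for Nr1d2 and -0.07 to 0.06 for Nr1d1 in saline rats, and from -0.01 to 0.01 for Nr1d2 in the average. Each of the 8 genes had at least 503 reads per library. The intervals rest on 4 pools a group, and their width holds both spread between pools and counting noise, which were not separated.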
